A study of Mus musculus with 6 samples.

Results

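The genes described here lie along 1 stretch of chromosome 8 in mouse embryonic stem cells: Cyp4v3, Fam149a, Sorbs2, Pdlim3, Cfap96, Ufsp2, Ankrd37, Snx25, Cfap97 and Slc25a4. They were chosen by their fold changes in the authors' deposited table, as neighbours that change together, and matched there by gene name, which gave 10 rows of 17110. The fold changes and adjusted p-values of these 10 genes are therefore a description and test nothing. The study compared cells of the line TG2A, in which the endogenous retrovirus MERVL drives a fluorescent protein. The DsRed2+ group (3 samples) and the DsRed2- group (3 samples) were separated by cell sorting, share the genotype MERVL::Fluorescent protein, and were grown in serum with leukemia inhibitory factor. Polyadenylated RNA was sequenced. The labels say that replicates were collected on different dates and do not say how many clones the line represents.

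MERVL is transcribed in the early cleavage embryo and in a small share of cultured embryonic stem cells, so a reporter of this kind marks cells in a state like that embryo stage. The genes of the run do not belong to one pathway. Sorbs2 and Pdlim3 encode adaptors of the actin cytoskeleton that are best known from the Z-discs of muscle, and Slc25a4 encodes the ADP/ATP exchanger of the inner mitochondrial membrane that prevails in heart and skeletal muscle. Ufsp2 encodes a protease that matures the ubiquitin-like protein UFM1 and removes it from its targets, and Ankrd37 is a known target of the hypoxia-inducible factor HIF-1.

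A positive or negative fold change below has the sign that the authors' deposited table gives, which states neither the groups compared nor which of them is the numerator. The labels name only the sorted groups, and these are taken here as the groups compared. Values of single samples, and so their overlap between groups, are not analysed here, because the columns of the count table match no sample label. A negative value of -1 on the log2 scale means that the level in the numerator group was 50% of that in the other group. In bulk RNA, fewer cells of a type and less RNA per cell cannot be told apart. Pluripotency markers were abundant: 9 of 10 listed had a row, with mean normalized counts from 2822 to 38163 in the authors' deposited table. Of these, 6 were positive at an adjusted p-value under 0.05 and 3 did not pass, against 14.6% of all rows positive. Only 1 of 12 listed markers of the MERVL-positive state had a row used here, Calcoco2, at a log2 fold change of 3.10 (SE 0.14) in the authors' deposited table.

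The start sites of the first and last genes lie 878 kilobases apart in the promoter table of RefSeq (GRCm38.p6). Promoter windows were found there for 9 of the 10 genes, 12 windows in all, with Cfap96 matched through its older symbol 1700029J07Rik and with several start sites for Sorbs2 and Snx25. The 3 sequences below show the neighbours Ufsp2 and Ankrd37 and the weakly expressed Pdlim3, each as the 250 bases before the start site, 5′ to 3′ on the strand of the gene. Capitals mark matches to the searched motifs on either strand: the CCAAT box, the GC box GGGCGG, the TATA box TATAAA, the core bound by HIF-1 in its forms ACGTG and, with another first base, GCGTG, the cyclic AMP response element (CRE) TGACGTCA, the E2F forms TTTCGCGC, TTTGGCGC and TTTCCCGC, the YY1 motif GCCATNTT and the ETS core CCGGAAG. The letters of one motif do not contain those of another.

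The first sequence lies at chr8:45975278-45975527 on the plus strand (GRCm38.p6), the second at chr8:45999851-46000100 on the minus strand and the third at chr8:45885237-45885486 on the plus strand.

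Ufsp2: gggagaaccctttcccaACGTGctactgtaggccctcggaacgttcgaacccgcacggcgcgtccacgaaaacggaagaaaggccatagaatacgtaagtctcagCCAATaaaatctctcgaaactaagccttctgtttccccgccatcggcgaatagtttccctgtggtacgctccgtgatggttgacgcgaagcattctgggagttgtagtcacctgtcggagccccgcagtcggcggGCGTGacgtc

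Ankrd37: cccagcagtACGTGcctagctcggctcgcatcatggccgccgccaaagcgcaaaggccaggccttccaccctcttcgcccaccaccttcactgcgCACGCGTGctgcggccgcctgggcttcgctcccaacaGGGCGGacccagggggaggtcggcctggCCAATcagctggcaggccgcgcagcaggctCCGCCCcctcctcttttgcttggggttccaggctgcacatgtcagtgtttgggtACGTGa

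Pdlim3: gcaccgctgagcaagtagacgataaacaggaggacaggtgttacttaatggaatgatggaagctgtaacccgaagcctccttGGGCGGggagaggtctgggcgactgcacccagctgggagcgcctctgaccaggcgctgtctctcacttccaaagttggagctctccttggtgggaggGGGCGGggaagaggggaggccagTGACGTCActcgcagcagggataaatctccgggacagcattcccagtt

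Most of the sequence of Ufsp2 also lies before Cfap96, read on the other strand. These genes start head to head, with 275 bases between their start sites, and their 300-base windows share 225 bases. A CCAAT box and an ACGTG match thus count for both genes. Ankrd37 held 4 matches to the hypoxia core, of which a pair overlap on opposite strands, beside a CCAAT box and matches to the GC box on either strand. Pdlim3 held the CRE, which reads the same on both strands, at positions -48 to -41 counted from its start site. No other searched stretch of these genes held it, and 1.55% of all 32851 windows in the table did.

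**Figure D1:**
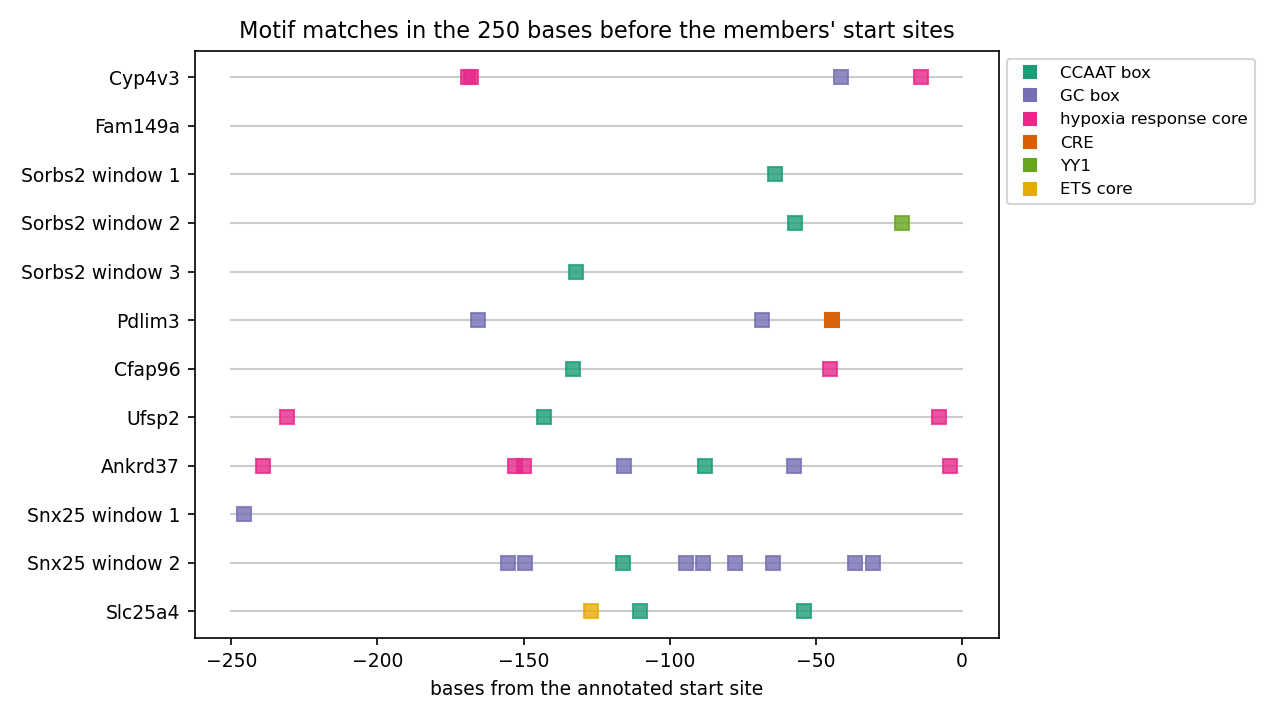
Motif matches in the 250 bases before 12 annotated start sites of 9 genes; the horizontal axis is the distance from the start site in bases and each square is a match on either strand. CCAAT boxes appear in 8 of the 12 windows, and the window of Fam149a holds no match.

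The motif most often present was the CCAAT box, in 8 of 12 windows and 6 of 9 genes, against 33.8% of all windows. These 8 include every window of Sorbs2, and Cfap96 and Ufsp2 share the same box. The share of all windows is for single windows and not for genes. GC boxes were present in 5 windows (32.7% of all windows), most densely before Snx25, and hypoxia cores in 4 windows (38.6% of all windows). Slc25a4 held a pair of CCAAT boxes and 1 ETS core, which 6.91% of all windows hold, and YY1 matched in 1 window of Sorbs2 (3.91% of all windows). TATA boxes and E2F motifs were in 0 of the 12 windows, against 12.4% and 1.53% of all windows. GC content before the start sites ranged from 41.6% at a start of Sorbs2 to 75.6% at a start of Snx25, around a median of 52.4% over all windows. No searched motif was thus present before all 9 genes.

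Each of the 10 genes was negative, with an adjusted p-value below the threshold of 0.05, in the authors' deposited table. Of all 17110 rows of the authors' deposited table, 15.9% were negative at that threshold and 14.6% positive, and the rows placed on chromosome 8 had 17.3% negative. The median log2 fold change of the 10 genes was -1.13 and that of all rows 0.0097 in the authors' deposited table. All 10 also carried the authors' own down call, which 12.1% of rows carried. At an adjusted p-value under 0.01, 8 of the 10 were negative (background 12.1%), and at a log2 fold change under -1, 7 were (background 7.69%). Since this contrast chose the genes, nothing is read from these counts.

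**Figure D2:**
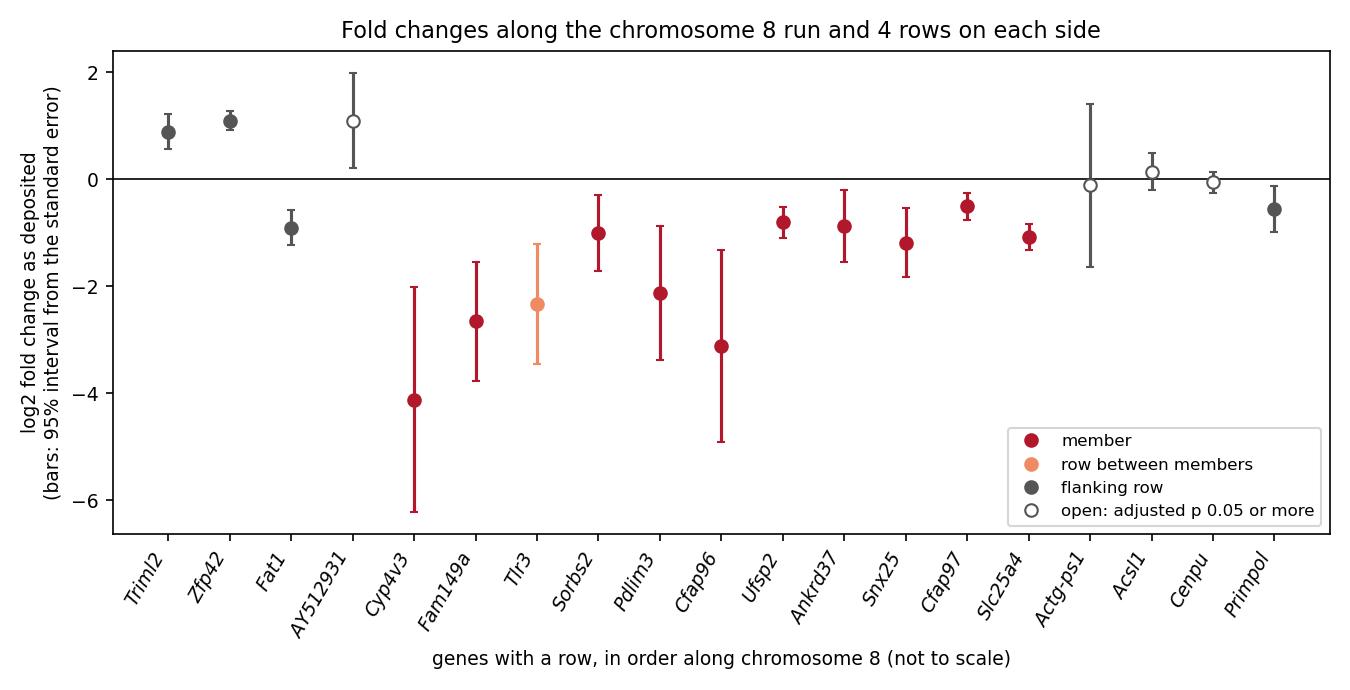
Log2 fold change of each gene with a row, in chromosome order, for the run and 4 rows on each side; bars are 95% intervals from the authors' standard errors and open circles have an adjusted p-value of 0.05 or more. The 11 rows from Cyp4v3 to Slc25a4, Tlr3 included, all lie below 0. Both rows next to the run are open, at mean counts of 25.9 and 8.65.

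Slc25a4 (ENSMUSG00000031633) was by far the most abundant of the genes, with a mean normalized count of 5586 over the 6 libraries in the authors' deposited table. Its log2 fold change was -1.08 (standard error, SE, 0.12), a ratio of 47.2% (95% interval 40.0% to 55.8%) in the authors' deposited table. The adjusted p-value was 4.11e-17, and by p-value the gene stood at place 393 among all rows of the authors' deposited table. The exchanger thus had the smallest standard error of the run, and none of its 50-base words occurs in a transcript of another gene in GENCODE M21.

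The cytoskeletal adaptors were measured at much lower counts. Sorbs2 (ENSMUSG00000031626) had a mean count of 46.5 and a log2 fold change of -1.01 (SE 0.36) in the authors' deposited table, a ratio of 49.7% (adjusted p 0.0203). Pdlim3 (ENSMUSG00000031636) had a mean count of 17.0 and stood at -2.13 (SE 0.64, adjusted p 0.00423) in the authors' deposited table. Their 95% intervals, from -1.72 to -0.30 and from -3.38 to -0.88, overlap by the errors of the authors' deposited table. The difference between Pdlim3 and Sorbs2 was not tested.

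The neighbours Ufsp2 and Ankrd37 are convergent and share 57 exonic bases on opposite strands. Ufsp2 (ENSMUSG00000031634) had a mean count of 609.2 and a log2 fold change of -0.80 (SE 0.15) in the authors' deposited table, a ratio of 57.3% (adjusted p 7.06e-07). Ankrd37 (ENSMUSG00000050914) had a mean count of 186.9 and -0.88 (SE 0.34, adjusted p 0.0369) in the authors' deposited table. The adjusted p-value of Ankrd37 was the highest of the 10, and its interval reached from -1.55 to -0.20 in the authors' deposited table.

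Snx25 and Cfap97 start close together on opposite strands and share 132 exonic bases. Snx25 (ENSMUSG00000038291), a sorting nexin with an RGS domain, had a mean count of 234.5 and a log2 fold change of -1.19 (SE 0.33, adjusted p 0.00179) in the authors' deposited table. Cfap97 (ENSMUSG00000031631), named for cilia and flagella, had a mean count of 670.7 and the smallest change of the run, -0.51 (SE 0.13, adjusted p 0.000493), or a ratio of 70.4%, in the authors' deposited table. The intervals of this pair, from -1.83 to -0.54 and from -0.76 to -0.26, overlap by the errors of the authors' deposited table.

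The 3 most negative values belonged to genes with mean counts under 50. Cyp4v3 (ENSMUSG00000079057), a fatty acid hydroxylase of the cytochrome P450 superfamily, had a mean count of 9.23 and -4.12 (SE 1.08, adjusted p 0.000809) in the authors' deposited table. Cfap96 (ENSMUSG00000071103) had a mean count of 9.65 and -3.12 (SE 0.91, adjusted p 0.0033) in the authors' deposited table. Fam149a (ENSMUSG00000070044) had a mean count of 26.5 and -2.65 (SE 0.57, adjusted p 2.48e-05) in the authors' deposited table. The interval of Cyp4v3 alone spans ratios from 1.34% to 24.8% in the authors' deposited table, so the sizes of these low genes are known only roughly.

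The run therefore divides by depth along its length. The first 5 of the 10 genes in chromosome order had mean counts under 50 and log2 fold changes from -4.12 to -1.01 with standard errors from 0.36 to 1.08 in the authors' deposited table. The last 5, from Ufsp2 to Slc25a4, had mean counts of 186.9 or more and log2 fold changes from -1.19 to -0.51 with standard errors from 0.12 to 0.34 in the authors' deposited table. A gene with few reads passes the threshold only with a large change, and the same order held over all negative calls. The median was -2.28 for the 500 negative calls with a mean count under 50, -0.98 for the 1490 from 50 to under 1000 and -0.44 for the 729 at 1000 or more in the authors' deposited table. The median standard error of all rows in these classes was 0.63, 0.20 and 0.11 in the authors' deposited table. Slc25a4, at -1.08, was more negative than the median of the negative calls with a mean count of 1000 or more. Since its fold change chose the gene, its place among them is a description. Of the 45 pairs of the 10 genes, 31 had overlapping 95% intervals and 14 did not, as computed from the authors' deposited table. Cfap97 and Slc25a4 are a pair that did not. Overlap is a description and no test of a difference, and the genes were measured in the same libraries.

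**Figure D3:**
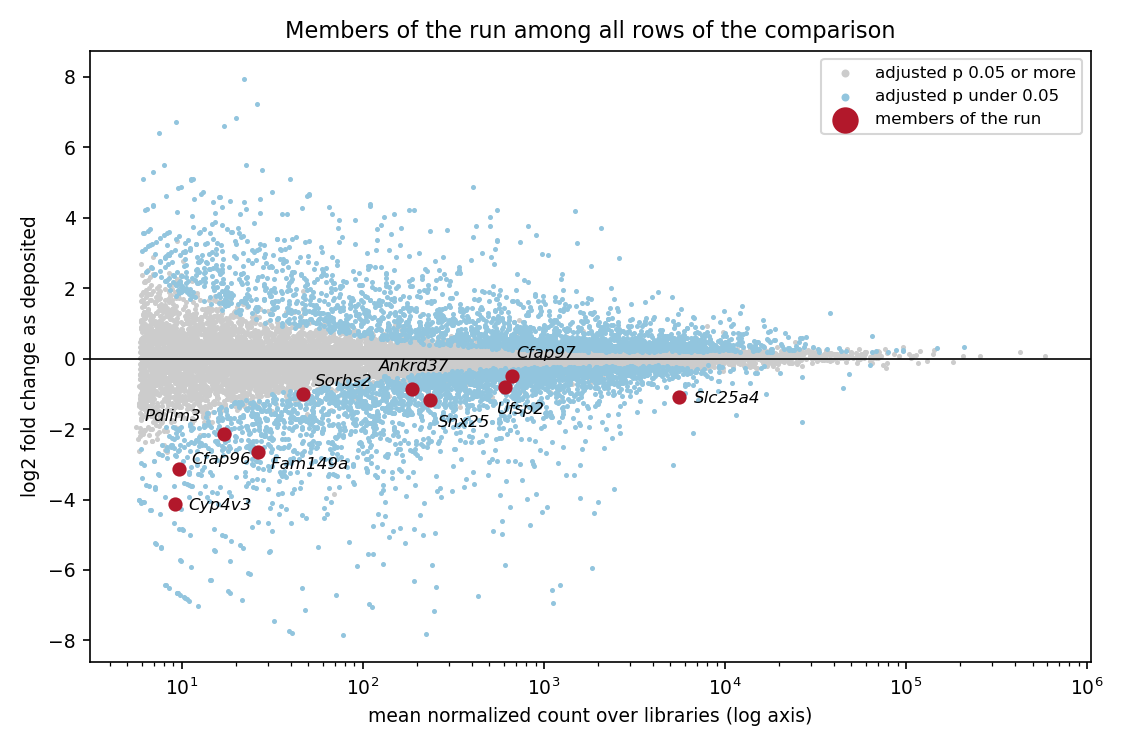
Log2 fold change against mean normalized count (log axis) for all 17110 rows; red points are the 10 genes of the run and blue points have an adjusted p-value under 0.05. The 5 genes with a mean count under 50 reach -4.12, while the 5 others lie between -1.19 and -0.51.

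Per kilobase of the longest coding transcript in GENCODE M21, the mean level divided the genes into a high and a low set. Slc25a4 had 2902 mean normalized counts per kilobase, Ufsp2 371.4, Ankrd37 201.7, Cfap97 145.2 and Snx25 68.1, from the authors' deposited table. Pdlim3 had 10.6, Sorbs2 7.34, Fam149a 4.85, Cfap96 3.52 and Cyp4v3 2.42 mean normalized counts per kilobase, from the authors' deposited table. The spread of these levels over libraries is not analysed here, so neighbours in this order cannot be separated.

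Reads from bases that gene models share may be counted for either gene, and how the counting used strand is not given in the sources used here. Ankrd37 shares 26.4% of its exonic bases with other genes on the opposite strand, mostly with Lrp2bp, and 11.4% of the 50-base words of its longest coding transcript occur in other genes. Cyp4v3 shares 8.22% of its exonic bases with the model Gm45753 on its own strand. For Cfap97, 8.36% of the words occur in the model AC154343.2, and for Sorbs2, 3.77% of exonic bases lie opposite Sorbs2os. Fam149a, Pdlim3 and Slc25a4 share 0 exonic bases and 0 such words in GENCODE M21. The annotation the authors counted on may differ from it, and the part of shared bases in the values of the run was not tested.

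Between Fam149a and Sorbs2 lies Tlr3, which senses double-stranded RNA and was not among the 10 genes. It was also negative, at -2.34 (SE 0.57, adjusted p 0.000329) and a mean count of 27.4 in the authors' deposited table. With it, 11 rows in succession were negative past the threshold. GENCODE M21 places 13 protein-coding genes from Cyp4v3 to Slc25a4, and Ccdc110 and Lrp2bp, which had no row used here, are not analysed here.

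Values beyond both edges were mixed, and the rows next to the run had low mean counts. The row before Cyp4v3, the long non-coding RNA AY512931, stood at 1.10 (SE 0.46) in the authors' deposited table. Its adjusted p-value was 0.053 and its mean count 25.9. Beyond it, Fat1, an atypical cadherin, was negative at -0.91 (SE 0.16, adjusted p 4.48e-07) in the authors' deposited table. The next genes outward were positive in the authors' deposited table: Zfp42, a pluripotency marker, at 1.10 (SE 0.092), Triml2 at 0.89 (0.17) and, without passing the threshold, the pseudogene Gm6284 at 0.95 (0.42). Genes with opposite signs thus stand within 3 rows of the run on that side.

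On the other side, the pseudogene Actg-ps1 stood at -0.12 (SE 0.78, adjusted p 0.936) in the authors' deposited table, at a mean count of 8.65. Acsl1, which activates long-chain fatty acids, stood at 0.14 (SE 0.17) and the centromere gene Cenpu at -0.061 (0.10) in the authors' deposited table, both without a call. The next row, the primase-polymerase gene Primpol, was negative again at -0.56 (SE 0.22, adjusted p 0.0394) in the authors' deposited table. Irf2, an interferon regulatory factor 7 rows from the run and named after its value was seen, stood at -3.93 (SE 0.91) at a mean count of 13.8 in the authors' deposited table. Of the 4 rows nearest to the run on each side, 1 before (Fat1) and 1 after (Primpol) were negative past the threshold. Among the 10 nearest rows on each side, 1 was negative and 3 positive before the run, and 3 were negative and 1 positive after it. Over all rows, 15.9% were negative and 14.6% positive.

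Genes related to the run by family or pathway, but located elsewhere, were then read from the same table. The paralogs of Slc25a4 went the other way. Slc25a5, the exchanger that prevails in dividing cells, was positive at 0.34 (SE 0.070, adjusted p 9.03e-06) and a mean count of 30743 in the authors' deposited table. Slc25a31, the exchanger of the germ line, was positive at 1.80 (SE 0.54, adjusted p 0.00423) and a mean count of 18.2 in the authors' deposited table. The difference between the paralogs was not tested.

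Relatives of the cytoskeletal adaptors were negative or not called. In the SoHo adaptor family, Sorbs3 stood at -2.08 (SE 0.24, adjusted p 3.45e-16) in the authors' deposited table. Of the 6 other PDZ-LIM genes, 3 were negative past the threshold and 0 positive in the authors' deposited table: Pdlim7 at -1.09 (SE 0.22), Pdlim2 at -1.56 (0.37) and Pdlim5 at -0.28 (0.10). Pdlim4 at -1.04 (0.50), Pdlim1 at -0.18 (0.10) and Ldb3 at 0.64 (0.44) did not pass in the authors' deposited table. Among 13 sarcomere and Z-disc genes with a row (21 listed), 2 were negative and 3 positive past that threshold in the authors' deposited table. Their median was 0.24, and 8 did not pass. Over all rows, 15.9% were negative and 14.6% positive. The giant sarcomere protein gene Ttn stood at 2.25 (SE 0.46) and skeletal actin, Acta1, at -3.12 (0.74) in the authors' deposited table.

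Of the UFM1 pathway genes reported here, 2 passed the threshold, the proteases Ufsp2 and Ufsp1, and Ufsp2 was chosen by its fold change. Over all rows, 15.9% were negative at that threshold, and nothing is read from this count. Ufsp1, the paralog of Ufsp2, was negative at -0.81 (SE 0.27, adjusted p 0.00996) in the authors' deposited table. The modifier Ufm1, its conjugating and ligating enzymes Ufc1 and Ufl1, and the partners Ddrgk1, Cdk5rap3 and Odr4 ranged from -0.27 to 0.21 in the authors' deposited table, and 0 of these 6 passed the threshold of the authors' DESeq2 test, with 0 at an unadjusted p-value under 0.05. The lowest and highest of them were Ddrgk1 and Ufc1, with standard errors of 0.15 and 0.12 in the authors' deposited table.

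Hypoxia targets were the pathway list of Ankrd37. Of the 19 listed besides Ankrd37, 10 were negative and 2 positive past that threshold in the authors' deposited table, around a median of -0.73, against 15.9% of all rows negative and a median of 0.0097. The glycolytic regulator Pfkfb3 stood at -1.20 (SE 0.22, adjusted p 5.81e-07) and the peptide hormone gene Adm at -3.0 (SE 0.58, adjusted p 2.89e-06) in the authors' deposited table. The positive genes were the histone demethylase Kdm3a at 0.54 (SE 0.11) and Mxi1 at 0.58 (0.19) in the authors' deposited table, while Vegfa (-0.73, SE 0.59) and Bnip3 (-0.37, 0.53) did not pass.

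**Figure D4:**
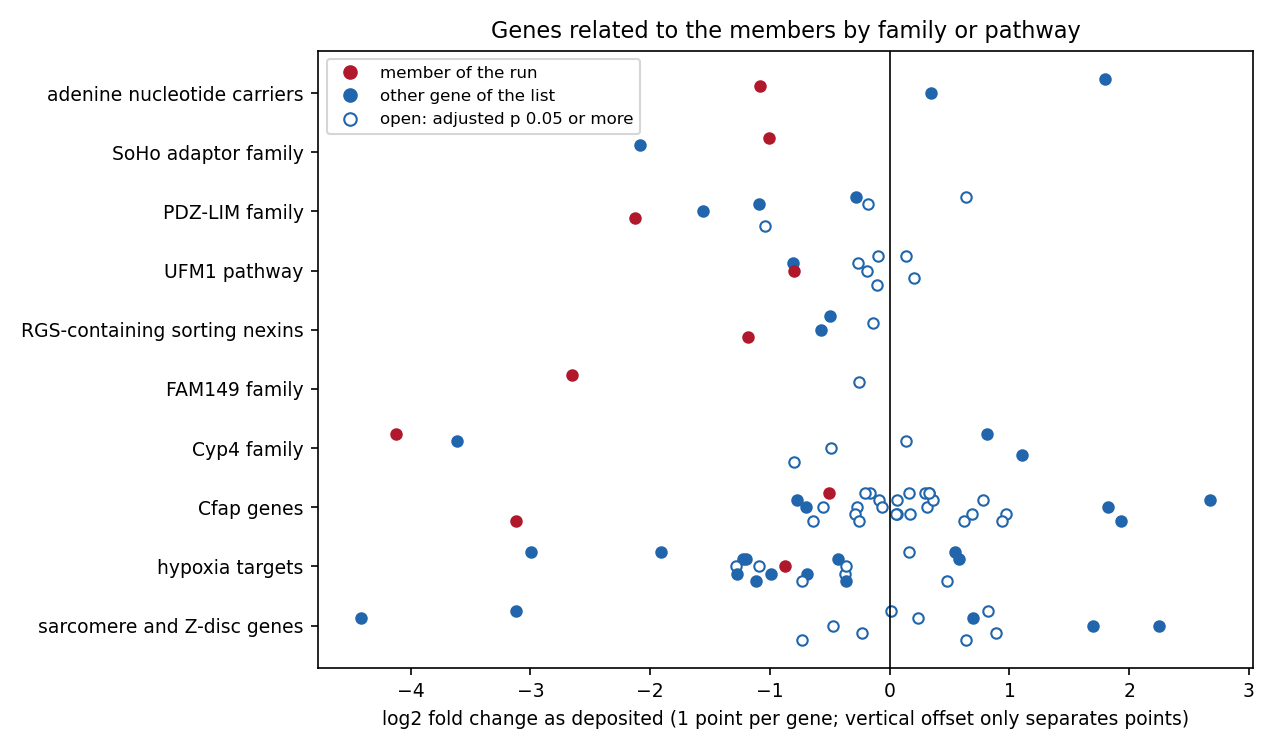
Log2 fold change of the genes reported here from 10 lists related to the run; red points belong to the run, blue points do not, and open circles have an adjusted p-value of 0.05 or more. Hypoxia targets lie mostly below 0, while the adenine nucleotide carriers split, with Slc25a4 at -1.08 and the others at 0.34 and 1.80.

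The remaining relatives gave mixed values. Of the other RGS-containing sorting nexins of the authors' deposited table, Snx19 (-0.57, SE 0.15) and Snx13 (-0.50, 0.15) were negative past the threshold and Snx14 (-0.14, 0.14) was not. Fam149b stood at -0.26 (0.11) without a call in the authors' deposited table. Among the 6 other Cyp4 rows of the authors' deposited table, Cyp4x1 was negative at -3.61 (0.89), Cyp4f13 and Cyp4f39 were positive at 0.81 (0.31) and 1.10 (0.43), and Cyp4f16, Cyp4f17 and Cyp4f41-ps, at 0.14 (0.16), -0.49 (0.22) and -0.80 (0.48), did not pass. Of the 29 other Cfap rows of the authors' deposited table, 24 did not pass, 2 were negative and 3 positive, with Cfap144 at 1.93 (0.45) and Cfap91 at 1.83 (0.45) having the smallest adjusted p-values. Over all rows of that table, 15.9% were negative and 14.6% positive at the same threshold, and nothing is read from the Cfap counts.

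Markers of trophectoderm and of fibroblasts were mostly negative in the same comparison. In the authors' deposited table, 4 of 5 trophectoderm markers with a row (6 listed) were negative past the threshold around a median of -4.39. The same held for 5 of 7 fibroblast markers (8 listed), around a median of -1.95. The other markers of these lists, 1 of trophectoderm and 2 of fibroblasts, did not pass. Over all rows, 15.9% were negative past the threshold and the median was 0.0097. Of 7 muscle markers (8 listed), 1 was negative and 1 positive in the authors' deposited table. Of 4 primitive endoderm markers (5 listed), 0 passed the authors' DESeq2 test and 0 had an unadjusted p-value under 0.05, around a median of -0.73. At mean counts from 9.05 to 14.7 and standard errors from 0.71 to 0.81, these 4 cannot tell no change from a sizeable change. The part of all these markers in the values of the run was not tested, and their summed level in each group is not analysed here.

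Along all chromosomes, the rows from Cyp4v3 to Slc25a4 made the longest succession of negative calls, 11 rows with a median log2 value of -1.19 by the authors' deposited table. Of 15 successions of at least 6 rows with the same call, 6 were negative and 9 positive, and the only longer one was positive, with 18 rows of zinc-finger and predicted genes on chromosome 4, as computed from the authors' deposited table. Since the run was picked for this property, its rank among successions is a description.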

How the data were processed

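Bulk RNA-seq libraries of 2 sorted groups, 3 samples each, were compared by the authors. The submitters' processing notes name FastQC 0.12.1, Trimmomatic 0.39, STAR 2.7.11b, RSEM 1.3.3, DESeq2 1.45.3 and GRCm39, without role or order. Per the file headers, the authors' deposited table has DESeq2's columns. The authors' mean normalized count is a signal averaged over the 6 libraries. Fold changes with their standard errors were deposited as log2 values, and the deposited statistic is a score, a Wald statistic (the largest difference from the fold change divided by its error 5.77e-07). The p-value and adjusted p-value are those the authors deposited. The model formula, reference group and annotation are not given in the sources used here, nor whether collection date was in the model.

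A deposited table of counts was not used, because its 6 columns are named by run and barcode and match no label. Depth and replicate values are therefore not analysed here, and edgeR was not run. The planned count test was replaced by the authors' fit. Ratios and 95% intervals were computed from the fold change and standard error, assuming normal errors. The order of genes, exons and transcript words came from GENCODE M21 (GRCm38), which placed 16795 of 17110 rows by Ensembl ID; the other 315 rows have no place and could lie within the run. Coordinates are printed only for RefSeq promoters (GRCm38.p6), a build other than the authors'. A motif match is a description. The members and lists were chosen with earlier results of these data known. The genes named are the 10 members, the 5 rows on each side, rows between, every gene with a row in families of 10 or fewer, and the 2 called genes with the smallest adjusted p-value in larger lists; some that the rule names are not reported here, and others were chosen after their values were seen, among them Irf2, Kdm3a, Mxi1, Vegfa and Bnip3. The alternatives were other centres, thresholds and a minimum mean count. Successions of calls along chromosomes, shared bases and the 3 printed promoters were chosen after seeing the data, as was leaving Cyp46a1, of another family, out of the Cyp4 list. Recentring, adjustment and the search for successions were tested on simulated data. Analyses used Python 3.11.15 with pandas 2.3.3, numpy 2.4.6, scipy 1.17.1 and matplotlib 3.10.9.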

Additional observations from a re-analysis of the deposited data

How the results depend on the processing

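No paired analysis was possible because no column of counts is tied to a sample or a replicate, and the comparison came without values for single samples. For the same reason the planned edgeR and DESeq2 fits, other normalizations, count filters and fits without a replicate were not run, so whether 1 library decides a value is not known. A minimum mean count of 50 left 5 of the 10 genes, all 5 negative, and shortened the succession of negative calls from 11 rows to 6, which then runs from Fat1 through Ufsp2 to Slc25a4; the removal of rows itself produces both changes. Centring on all genes (0.0097), centring on 76 ribosomal protein genes (0.093) and a recomputed adjustment left 30 of 30 fold changes of the 10 genes with the same sign and call, at adjusted p-values up to 0.0369, and the succession at 11 rows, the last being an alternative chosen after seeing the data. Stricter limits kept 8 genes at an adjusted p-value under 0.01 and 7 at a log2 fold change under -1.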

Other observations

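Other stretches of neighbouring genes were negative in the authors' deposited table, chosen here after their values were seen. On chromosome 6, 7 rows from Tes to Cftr, which include the caveolin genes Cav1 and Cav2 and the receptor gene Met, lay at a median of -2.15 on the log2 scale by the authors' deposited table. On chromosome 10, 7 rows from Nhsl1 to Slc35d3, which include Tnfaip3 and Ifngr1, lay at -1.74 by the authors' deposited table. Both were shorter than the run on chromosome 8 and more negative at the median. The same held for the remaining negative successions of at least 6 rows, with medians from -6.45 to -1.57. The run on chromosome 8 was thus the least negative of them at the median.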
